A study of Mus musculus with 8 samples.

Results

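The genes described here are 44 genes of DNA replication and S phase, the part of the cell cycle in which the genome is copied. They were chosen by gene symbol: the subunits of the origin recognition complex, the helicase and its loaders and activators, the sliding clamp and its loader, the replicative polymerases, enzymes of nucleotide supply, maintenance DNA methylation, histone supply and chromatin assembly, and 3 regulators of the entry into S phase. All 44 are among the 18957 genes listed in the deposited count tables. The tables hold RNA-seq counts of cardiac fibroblasts sorted by FACS from mouse ventricles as PDGFRA-positive, lineage-negative cells, PDGFRA being a receptor that marks fibroblasts of the heart. Libraries came from 4 WT mice and 4 Pdgfra-Cre:LmnaF/F mice, in which a Cre recombinase driven by Pdgfra deletes floxed Lmna, the gene of the nuclear envelope proteins lamin A and C. All mice are labelled with the C57BL/6 (mixed) strain and were 3 to 4 weeks old, with 1 mouse to a library and no treatment in either group. Pdgfra-Cre mice without a floxed allele were not analysed here, so an effect of the Cre cannot be told apart from that of the Lmna deletion.

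DNA replication is prepared in G1, when the origin recognition complex with CDC6 and CDT1 loads the MCM2-7 ring onto DNA, and begins when CDC45 and the GINS complex turn that ring into a moving helicase. Primase and the polymerases then copy the strands, with the PCNA clamp holding some of the polymerases to DNA. In most cells the transcripts of these proteins are controlled by E2F transcription factors, which are held back by the retinoblastoma protein in quiescent and senescent cells and released by cyclin E and its kinase at the passage from G1 into S phase. The study deals with senescence, a lasting exit from the cell cycle, in fibroblasts that lack Lmna, and these genes address whether transcripts of the machinery for copying DNA differed between the genotypes. From its differentially expressed genes the study predicted suppression of cell cycle pathways, with E2F and the G2M checkpoint among them. No set of genes was tested as a whole here.

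E2F sites, a feature that the choice of the genes did not use, were looked for in their promoters. RefSeq promoters (build GRCm38.p6, from 250 bases before to 50 bases after the start of transcription) were matched by symbol for 36 of the 44 genes, as 43 promoters. Each was searched on both strands for the 4 forms TTTCCCGC, TTTCGCGC, TTTGCCGC and TTTGGCGC of the E2F binding site. A match was found in 14 of the 43 promoters (32.6%), against 744 of all 32851 promoters in the RefSeq table (2.26%) and 506 of the 13065 promoters of genes tested here (3.87%). The 14 matches nearest to the start are printed with 9 bases on either side (fewer after that of Pold1, where the promoter window ends), the match in capitals, read along the gene's own strand, with the position of its first capital relative to the start; they are shown because E2F is the common regulator of this group of genes.
Orc1, chr4:108579418-108579443, plus strand, position -27: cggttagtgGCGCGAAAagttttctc
Orc3, chr4:34614967-34614992, minus strand, position -41: atgcctcccTTTCCCGCacgccccgc
Cdc6, chr11:98908004-98908029, plus strand, position -138: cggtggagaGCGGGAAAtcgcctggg
Cdt1, chr8:122568038-122568063, plus strand, position 33: aactaccttTTTGGCGCcatggcgca
Mcm3, chr1:20820277-20820302, minus strand, position 20: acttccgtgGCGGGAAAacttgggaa
Mcm5, chr8:75109347-75109376, plus strand, position -153: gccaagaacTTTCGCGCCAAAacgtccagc
Mcm6, chr1:128359736-128359761, minus strand, position -47: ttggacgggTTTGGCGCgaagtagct
Mcm7, chr5:138171851-138171876, minus strand, position 17: gtgacgacgTTTCGCGCcaatttcgg
Gins3, chr8:95633509-95633534, plus strand, position -41: gagtgcggcGCGGGAAAgcgagtttg
Rfc3, chr5:151651192-151651217, minus strand, position 1: ttcgcgctcGCGGGAAAactctactg
Pola1, chrX:93632277-93632302, minus strand, position -138: catcacaggGCGCCAAAtgcactccc
Pold1, chr7:44548766-44548785, minus strand, position 40: tatcttgtgGCGGGAAAagc
Uhrf1, chr17:56304119-56304144, plus strand, position -185: cgagtcgggTTTCGCGCgcccaggcg
Dnmt1, chr9:20952574-20952599, minus strand, position 34: ggggcagcgTTTGGCGCgggctgtgc
The matches lay in genes of most of the roles, from origin binding (Orc1, Orc3) and loading (Cdc6, Cdt1) through the helicase (Mcm3, Mcm5, Mcm6, Mcm7 and the GINS subunit Gins3) to the clamp loader (Rfc3), the polymerases (Pola1, Pold1) and maintenance methylation (Uhrf1, Dnmt1). The box CCAAT, a site of the factor NF-Y, stood in 62.8% of the 43 promoters against 37.4% of all promoters, and the GC box GGGCGG, a site of SP1, in 76.7% against 35.7%, or 61.5% of the promoters of tested genes. The element TTTGAA, found in genes expressed in G2 and M, stood in 9.30% of them against 17.9% of all promoters and 11.8% of those of tested genes, and the share of CCAAT in the latter was 37.2%. The matches of the E2F forms can overlap those of the other boxes, and a match is a description of the letters, not a shown binding site. Of the 2 genes with the lowest p in the comparison of genotypes, Pcna and Slbp, neither promoter held one of the 4 E2F forms. The 250 bases before the start are printed for both, with CCAAT (or ATTGG on the other strand) and GC boxes in capitals. The start is that of RefSeq. For some genes, Pcna and Dnmt1 among them, it lies inside the gene as bounded in the GENCODE annotation. Part of the Pcna stretch thus lies inside the gene coordinates given below.
Pcna, chr2:132253181-132253430, minus strand: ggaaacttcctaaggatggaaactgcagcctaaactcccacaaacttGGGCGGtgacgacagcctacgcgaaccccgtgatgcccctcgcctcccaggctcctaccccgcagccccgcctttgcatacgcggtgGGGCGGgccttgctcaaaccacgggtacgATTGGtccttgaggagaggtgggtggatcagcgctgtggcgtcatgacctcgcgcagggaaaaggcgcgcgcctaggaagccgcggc
Slbp, chr5:33652575-33652824, minus strand: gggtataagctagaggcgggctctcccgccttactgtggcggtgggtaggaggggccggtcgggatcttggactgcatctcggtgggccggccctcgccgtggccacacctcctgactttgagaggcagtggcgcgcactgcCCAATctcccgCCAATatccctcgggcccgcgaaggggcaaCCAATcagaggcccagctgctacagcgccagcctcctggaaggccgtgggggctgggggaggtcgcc
Pcna had a GC box at positions -203 and -116 and a CCAAT box at -87, and Slbp had CCAAT boxes at -108, -97 and -67.

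The libraries held between 2080555 counts (WT 2) and 12502949 counts (Pdgfra-Cre:LmnaF/F 4), so that 1 count weighs most in WT 2. Levels are given as CPM, counts scaled to a common library size, with the sizes adjusted by TMM, a normalization that sets aside genes with extreme ratios. Lmna was lower in all 4 Pdgfra-Cre:LmnaF/F libraries, at 90.4 to 130 CPM against 274 to 483 CPM in WT (log2 fold change -1.72 ± 0.22, SE, edgeR adjusted p = 0.00492), as labelled. Mesenchymal markers, with Pdgfra among them, summed to 42217 to 58684 CPM in every library, and the summed levels of endothelial, mural, leukocyte, cardiomyocyte, Schwann cell, erythroid and epicardial markers overlapped between the genotypes. The summed level of 22 genes of the early response to cell dissociation did not overlap, at 3250 to 6552 CPM in WT and 8828 to 14382 CPM in Pdgfra-Cre:LmnaF/F libraries. In RNA of sorted cells, fewer cells that express a gene and less RNA of it per cell cannot be told apart.

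No replication gene changed past the threshold between the genotypes. Of the 44 genes, 43 passed the filter on low counts and were tested with the quasi-likelihood test of edgeR, adjusted by the Benjamini-Hochberg method over all 13036 genes tested. None of the 43 had an adjusted p under 0.05, a threshold that 0.407% of all tested genes passed (53 genes, 22 higher and 31 lower in Pdgfra-Cre:LmnaF/F). At an unadjusted p under 0.05 there were 2 of 43 (4.65%), Pcna and Slbp, both higher in Pdgfra-Cre:LmnaF/F, against 11.9% of all tested genes. This share depends on level. At a mean of 10 CPM or more it was 9.09% against 15.1% of all genes, and under it 0% against 3.21%. None passed the adjusted threshold in DESeq2 or in limma-voom either, where 4 and 2 of the 43 had an unadjusted p under 0.05, against 12.9% and 14.4% of all genes in the same fits. DESeq2 gave no adjusted p for some low genes, Ccne2 and Gins1 among them. The genotypes did not overlap for 3 genes (6.98%), against 8.03% of all tested genes, and these were Pcna and Orc2, higher in Pdgfra-Cre:LmnaF/F, and Ccne2, lower. The latter share was near that of all genes, also at matched level: 9.09% against 9.30% at a mean of 10 CPM or more and 4.76% against 4.65% under it. Of the 43, 24 had a positive and 19 a negative log2 fold change, with a median of 0.064 (0.025 for all tested genes) and a range from -2.41 to 2.08.

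**Figure D1:**
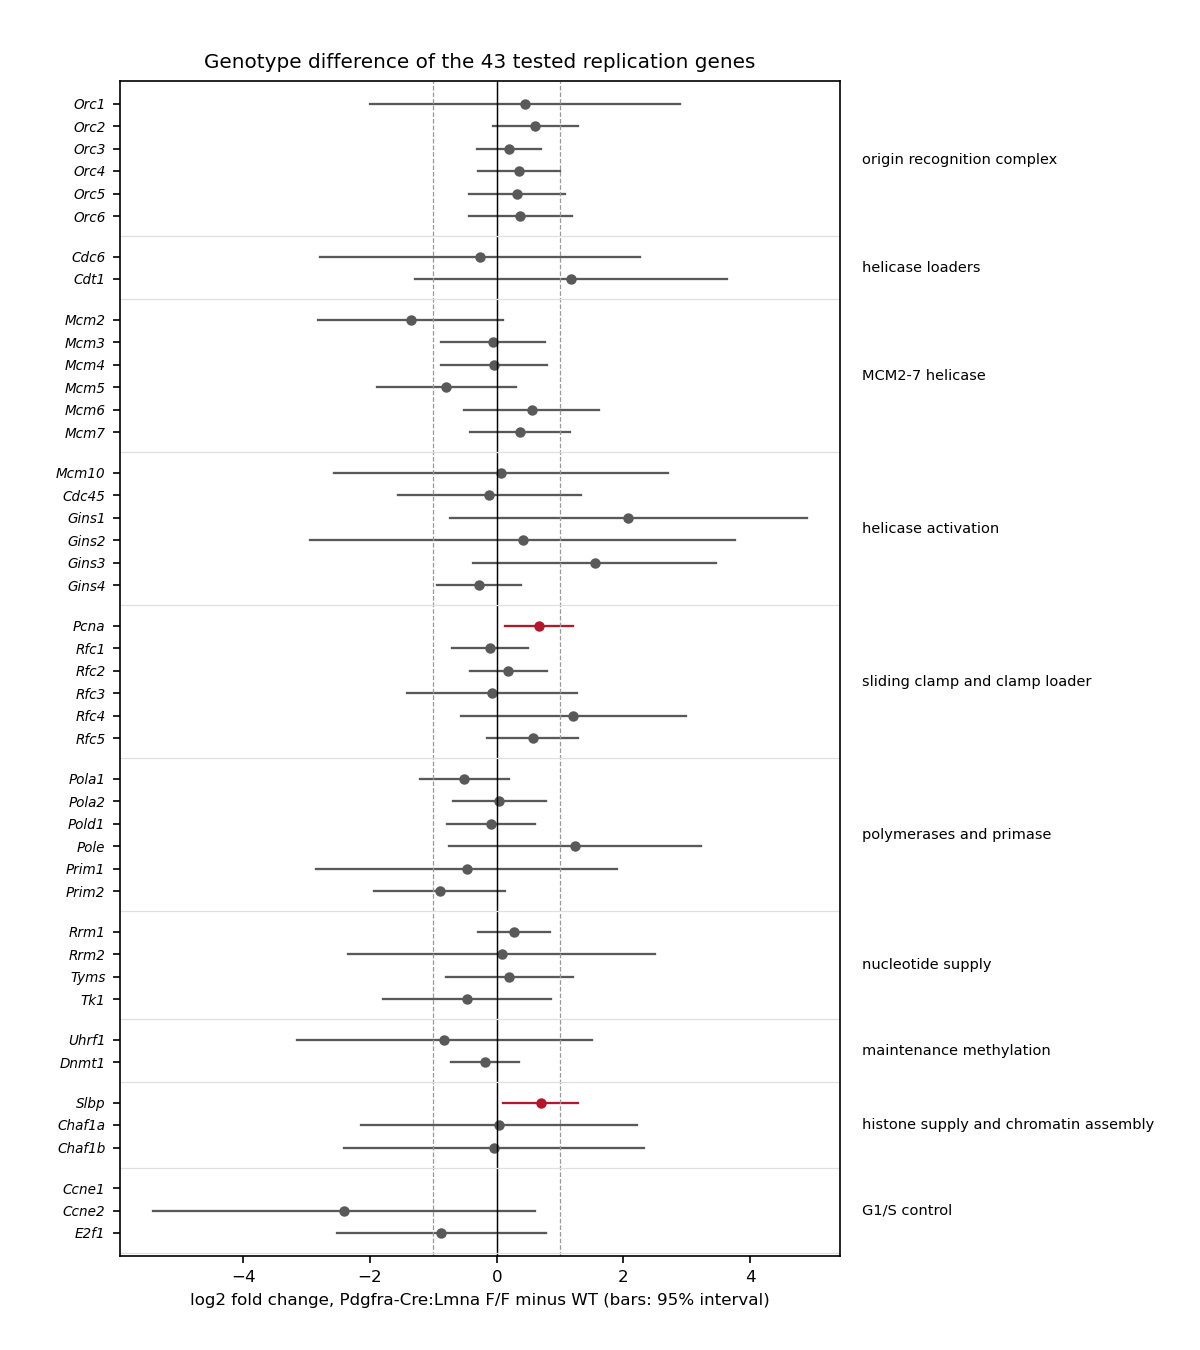
Log2 fold change (Pdgfra-Cre:LmnaF/F minus WT, horizontal axis) of the 43 tested replication genes by role, with 95% intervals of edgeR's quasi-likelihood fit; dashed lines mark a 2-fold change either way. The intervals of Pcna and Slbp (red) exclude 0 before adjustment, none passes an adjusted p of 0.05, and Ccne1 has no point because it was not tested.

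How large a difference the data could hide depended on the gene. The 95% interval of the log2 fold change lay within 2-fold in either direction for 10 genes: Orc3, Mcm3, Mcm4, Gins4, Rfc1, Rfc2, Pola2, Pold1, Rrm1 and Dnmt1. For 12 genes the interval included a 2-fold difference in both directions, and the widths ran from 1.01 to 6.70 on the log2 scale. The 43 genes fell into 22 with a mean of 10 CPM or more and 21 under it. The spread between mice of one genotype, as the SD of log2 CPM, had a median of 0.44 in the first set and 1.32 in the second. All tested genes of the same ranges had medians of 0.40 and 1.41. Of the 21 lower genes, 15 had a library at 3 counts or fewer, and none of the 22 did.

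**Figure D2:**
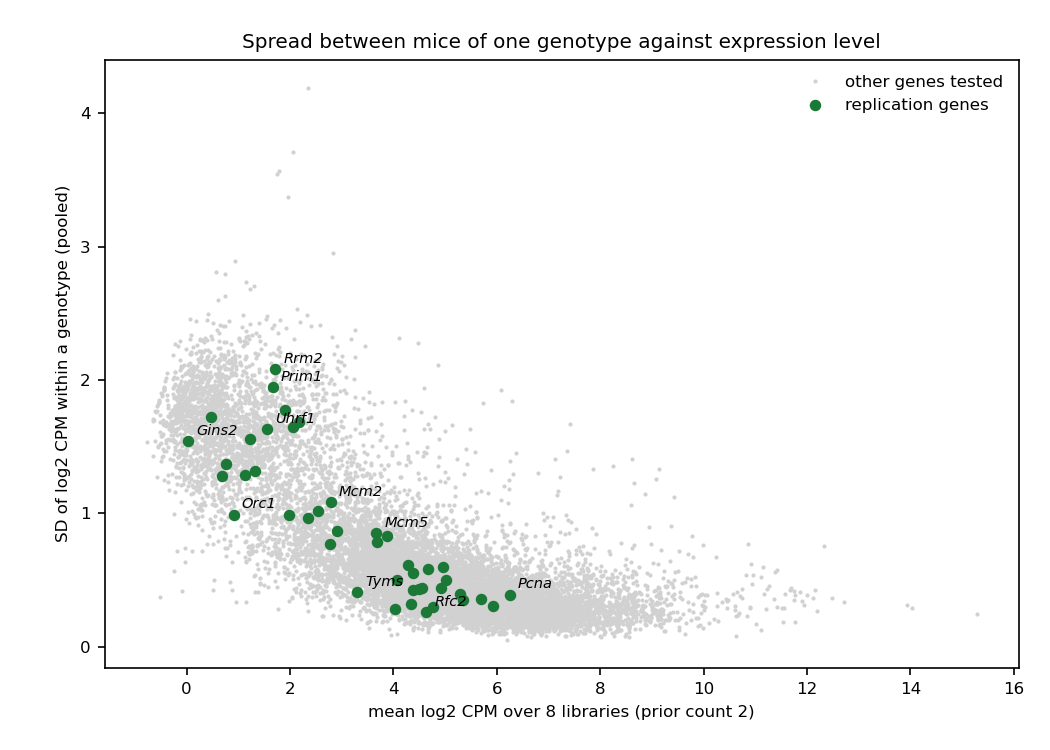
SD of log2 CPM between mice of one genotype (vertical axis, pooled over both genotypes) against mean log2 CPM over the 8 libraries (horizontal axis), for the 43 replication genes (green) and all other tested genes (grey). The replication genes lie within the cloud of the other genes at each level, with median SD 0.44 at 10 CPM or more and 1.32 below.

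The origin recognition complex, which marks the sites where copying can start, had 6 of 6 genes with positive log2 fold changes, from 0.19 to 0.61, and none of them passed the test. Orc2, a core subunit (GRCm38 chromosome 1, 58462771 to 58505109, minus strand), stood at 18.0, 11.6, 18.9 and 17.1 CPM in WT 1 to 4 and at 23.7, 33.1, 19.1 and 24.9 CPM in Pdgfra-Cre:LmnaF/F 1 to 4. Every Pdgfra-Cre:LmnaF/F library was thus above every WT library, though the nearest values, 18.9 and 19.1 CPM, almost met. The log2 fold change of Orc2 was 0.61 ± 0.32 (SE, n = 4 and 4, edgeR adjusted p = 0.478). The exons of Orc2 share 1150 bases (29.8%) with those of Nif3l1 on the opposite strand, and the strand setting of the counting is not given in the sources used here. Orc3, the highest of the complex per length, measured 57.6, 46.8, 69.7 and 57.0 CPM in WT and 56.9, 94.3, 60.0 and 54.1 CPM in Pdgfra-Cre:LmnaF/F, with 1 library, Pdgfra-Cre:LmnaF/F 2, above the rest. Its log2 fold change was 0.19 (95% interval -0.31 to 0.70), and -0.027 without that library. Orc4, Orc5 and Orc6 differed by 0.35, 0.33 and 0.37 on the log2 scale with overlapping groups. Orc1, the subunit that comes and goes with the cell cycle, was low in all libraries, at 0.799 to 5.64 CPM, and 10.8% of its exonic bases are shared with Gm12743 on the opposite strand.

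The helicase loaders Cdc6 and Cdt1 were both rare. Cdt1 stood at 2.24, 4.03, 0.160 and 0.725 CPM in WT and at 1.55, 7.40, 1.84 and 4.58 CPM in Pdgfra-Cre:LmnaF/F, with overlapping groups. The log2 fold change was 1.17 ± 1.15 (SE, edgeR adjusted p = 0.777), an error about as large as the difference. It ranged from 0.63 without Pdgfra-Cre:LmnaF/F 2 to 1.85 without WT 2. Cdc6 ranged from 0.115 CPM in Pdgfra-Cre:LmnaF/F 3 to 8.55 CPM in WT 2.

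The 6 genes of the MCM2-7 ring, the core of the helicase, had 2 positive and 4 negative log2 fold changes between the genotypes, from -1.36 to 0.55, and none passed the test. Mcm2 was measured at 5.23, 18.1, 16.8 and 12.2 CPM in WT and at 11.3, 2.50, 1.15 and 5.25 CPM in Pdgfra-Cre:LmnaF/F. Only 2 of the 4 Pdgfra-Cre:LmnaF/F libraries were below all of WT, and the log2 fold change was -1.36 ± 0.68 (SE, edgeR adjusted p = 0.464). It was -2.12 without Pdgfra-Cre:LmnaF/F 1 (edgeR adjusted p = 0.214) and -1.03 without Pdgfra-Cre:LmnaF/F 3. Mcm7, the highest of the ring per length, measured 32.3, 31.7, 24.6 and 27.5 CPM in WT and 29.7, 20.6, 24.5 and 75.2 CPM in Pdgfra-Cre:LmnaF/F. Its positive log2 fold change of 0.37 rested on Pdgfra-Cre:LmnaF/F 4 and turned to -0.22 without that library. That library was also the highest of the 8 for Mcm3 (40.8 CPM) and Mcm6 (25.75 CPM, with 25.65 CPM in Pdgfra-Cre:LmnaF/F 1). The log2 fold change of Mcm6 was 0.55 (edgeR adjusted p = 0.750) with overlapping groups. Pdgfra-Cre:LmnaF/F 4 held 3028 CPM of summed cardiomyocyte markers, which lay between 183 and 569 CPM in the other 7. Its leukocyte markers summed to 474 CPM, against at most 187 CPM in the other 7. The part of these markers in the results was not tested. Mcm4 and Mcm5 overlapped between the genotypes, with log2 fold changes of -0.041 and -0.80.

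Of the genes that activate the helicase, Gins4 alone was well expressed. The GINS complex holds 1 copy of each of its 4 subunits, yet Gins4 stood at 27.0 ± 9.66 (SD, n = 4) CPM per kilobase of exon in WT, against 0.535 ± 0.517 for Gins1, 0.260 ± 0.261 for Gins2 and 1.18 ± 0.566 for Gins3. Gins4 exceeded each of the other 3 in 8 of 8 libraries on this scale, which takes all annotated exons of a gene as its length. By library, Gins4 measured 33.0, 19.6, 48.7 and 44.4 CPM in WT and 19.9, 32.8, 36.8 and 32.1 CPM in Pdgfra-Cre:LmnaF/F (log2 fold change -0.27, 95% interval -0.94 to 0.39), and the log2 fold change was -0.12 without WT 3, -0.12 without Pdgfra-Cre:LmnaF/F 1 and -0.47 without WT 2. Gins1 had the largest positive log2 fold change of all the replication genes, 2.08 ± 1.32 (SE, edgeR adjusted p = 0.591), from 1.68, 0, 0.320 and 1.24 CPM in WT and 0.103, 8.13, 4.03 and 2.75 CPM in Pdgfra-Cre:LmnaF/F. It was 0.52 with limma-voom, and 1.38 without Pdgfra-Cre:LmnaF/F 2 and 2.66 without WT 1. Of these, 3 Pdgfra-Cre:LmnaF/F libraries were above all of WT and the other was below 3 of the WT libraries. Of the Pdgfra-Cre:LmnaF/F libraries, 3 were above and 1 was below all of WT for Gins3 too (log2 fold change 1.54 ± 0.90, SE). Cdc45, Mcm10 and Gins2 had log2 fold changes of -0.12, 0.064 and 0.41 with overlapping groups, and 67.3% of the exonic bases of Gins2 are shared with Gse1 on the opposite strand.

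**Figure D3:**
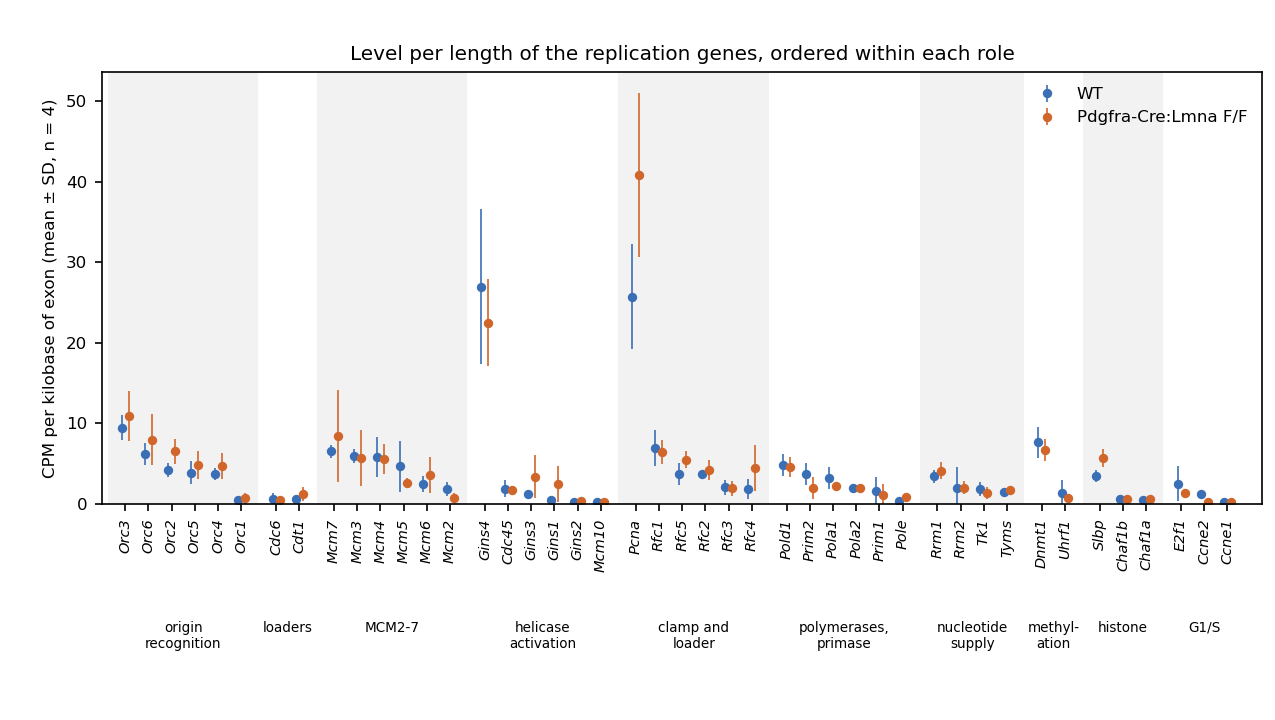
Mean level per length (CPM per kilobase of exon, vertical axis) of the 44 replication genes by role in WT (blue) and Pdgfra-Cre:LmnaF/F (orange) libraries; bars are SD over 4 libraries. Gins4 and Pcna stand above the rest in both genotypes, with WT means of 27.0 and 25.8.

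Pcna, the clamp that holds polymerases to DNA and also serves in DNA repair, had the lowest p of the replication genes. The gene (GRCm38 chromosome 2, 132249162 to 132253314, minus strand) measured 73.7, 62.9, 39.3 and 71.4 CPM in WT 1 to 4 and 79.2, 115, 123 and 75.2 CPM in Pdgfra-Cre:LmnaF/F 1 to 4. The groups did not overlap, with 73.7 and 75.2 CPM as the nearest values, and 4.06% of all tested genes were separated in this direction. The log2 fold change was 0.66 ± 0.25 (SE, 95% interval 0.13 to 1.20, edgeR adjusted p = 0.303), and over the alternatives the adjusted p lay between 0.108 and 0.550. Reads of Pcna may be shared with its processed pseudogenes Pcna-ps1 and Pcna-ps2. The clamp loader, which opens the ring around DNA, showed no common direction. Rfc1 and Rfc2 had log2 fold changes of -0.10 and 0.18 with intervals within 2-fold. Rfc1 ranged from 25.5 to 61.5 CPM, and Rfc2 spanned 22.6 to 24.2 CPM in WT and 22.0 to 37.7 CPM in Pdgfra-Cre:LmnaF/F, with 2 libraries above and 2 below all of WT. Rfc4 stood at 3.18, 1.01, 5.43 and 1.86 CPM in WT and at 3.62, 10.9, 10.2 and 2.42 CPM in Pdgfra-Cre:LmnaF/F (log2 fold change 1.21 ± 0.83, SE, edgeR adjusted p = 0.625). Rfc3 and Rfc5 had log2 fold changes of -0.074 and 0.57. Exonic bases are shared with a gene on the opposite strand for Rfc2 (15.1%, Lat2), Rfc4 (12.7%, Eif4a2) and Rfc5 (10.7%, Wsb2), with the doubt on strand given for Orc2.

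Of the polymerases and primase, 2 genes had positive and 4 negative log2 fold changes, and none passed the test. Pold1, the catalytic subunit of polymerase delta, measured 29.9, 14.6, 22.7 and 27.2 CPM in WT and 23.2, 14.7, 22.2 and 29.8 CPM in Pdgfra-Cre:LmnaF/F, nearly the same range in both (log2 fold change -0.085, 95% interval -0.78 to 0.61). Pole, the catalytic subunit of polymerase epsilon, measured 3.55, 9.56, 0 and 3.11 CPM in WT and 4.76, 8.86, 9.90 and 12.8 CPM in Pdgfra-Cre:LmnaF/F. Of the latter, 2 libraries were above all of WT, and the log2 fold change was 1.24 ± 0.93 (SE, edgeR adjusted p = 0.672). It was 2.0 without WT 2, 0.80 without WT 3 and 1.01 without Pdgfra-Cre:LmnaF/F 4, the library with the highest cardiomyocyte and leukocyte marker sums. Pole had the lowest adjusted p of any replication gene in any setting tried, 0.0538, from DESeq2 with a factor of unwanted variation, where its log2 fold change was 2.23 (2.23 also in edgeR with that factor, adjusted p = 0.272). Pold1 exceeded Pole per length in 8 of 8 libraries, with WT means of 4.86 and 0.363 CPM per kilobase. Pola1 and Pola2, subunits of the polymerase that begins each strand, had log2 fold changes of -0.51 and 0.041. The primase genes Prim1 and Prim2 had -0.47 and -0.90, and Prim2, at 11.6 to 31.2 CPM in WT and 4.07 to 22.8 CPM in Pdgfra-Cre:LmnaF/F, overlapped between the genotypes (edgeR adjusted p = 0.498).

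The 4 enzymes of nucleotide supply overlapped between the genotypes, and the interval of Rrm1 alone lay within 2-fold in either direction. Rrm1, the large subunit of ribonucleotide reductase, measured 42.3, 48.3, 27.8 and 32.2 CPM in WT and 35.9, 62.8, 42.5 and 40.6 CPM in Pdgfra-Cre:LmnaF/F (log2 fold change 0.28, 95% interval -0.29 to 0.85). The value was 0.080 without Pdgfra-Cre:LmnaF/F 2 and 0.15 without WT 3. Rrm2, the small subunit, which is made in S phase in cycling cells, ranged from 0 CPM in WT 3 to 15.1 CPM in WT 2 (95% interval of the log2 fold change -2.34 to 2.50), and was below Rrm1 per length in 7 of 8 libraries. Tk1, the thymidine kinase of cycling cells, measured 11.0, 15.6, 5.75 and 6.42 CPM in WT and 7.96, 1.98, 6.22 and 11.5 CPM in Pdgfra-Cre:LmnaF/F, again highest in WT 2 (log2 fold change -0.47 ± 0.62, SE, edgeR adjusted p = 0.845). Without WT 2 it was -0.17, without Pdgfra-Cre:LmnaF/F 2 it was -0.16, and without Pdgfra-Cre:LmnaF/F 4 it was -0.83. Tyms, the thymidylate synthase, had a log2 fold change of 0.20, and its reads may be shared with the pseudogene Tyms-ps.

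Dnmt1, the enzyme that copies DNA methylation onto the new strand, and Uhrf1, the protein that brings it there, kept unlike levels. Dnmt1 stood at 64.1, 68.9, 36.6 and 56.3 CPM in WT and 50.1, 59.2, 52.7 and 35.9 CPM in Pdgfra-Cre:LmnaF/F, with a 95% interval of the log2 fold change from -0.73 to 0.35, around an estimate of -0.19 that lay between -0.35 and -0.061 on leaving out a library. Uhrf1 measured 3.74, 16.1, 0.160 and 2.28 CPM in WT and 3.21, 1.46, 2.76 and 4.67 CPM in Pdgfra-Cre:LmnaF/F. The highest and the lowest of the 8 values were both in WT. Its log2 fold change of -0.83 ± 1.09 (SE, edgeR adjusted p = 0.844) became 0.54 without WT 2. Dnmt1 was above Uhrf1 per length in 8 of 8 libraries.

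Slbp, the protein that binds the stem-loop of histone mRNAs, was the other gene with an unadjusted p under 0.05. The gene (GRCm38 chromosome 5, 33634952 to 33652574, minus strand) measured 23.5, 18.1, 26.8 and 17.2 CPM in WT 1 to 4 and 26.1, 36.0, 42.6 and 34.7 CPM in Pdgfra-Cre:LmnaF/F 1 to 4. In the latter, 3 of 4 libraries were above all of WT and Pdgfra-Cre:LmnaF/F 1 was just below WT 3. The log2 fold change was 0.69 ± 0.28 (SE, 95% interval 0.10 to 1.29, edgeR adjusted p = 0.337), with adjusted p between 0.184 and 0.630 over the alternatives. The summed genes of the response to dissociation were also higher in every Pdgfra-Cre:LmnaF/F library, and their part in the differences of Pcna, Orc2 and Slbp was not tested. Chaf1a and Chaf1b, subunits of the factor that places histones on new DNA, had log2 fold changes of 0.034 and -0.047 with SEs of 1.02 and 1.11, and 52.5% of the exonic bases of Chaf1a are shared with Ubxn6 on the opposite strand.

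Among the regulators of the entry into S phase, Ccne2, an E-type cyclin (GRCm38 chromosome 4, 11191351 to 11204779, plus strand), had the largest negative difference of the group. It measured 2.24, 5.53, 5.91 and 3.11 CPM in WT and 0, 0, 2.19 and 0.917 CPM in Pdgfra-Cre:LmnaF/F. The groups did not overlap, but 2.24 CPM in WT 1 and 2.19 CPM in Pdgfra-Cre:LmnaF/F 3 were near each other, and the log2 fold change was -2.41 ± 1.41 (SE, edgeR adjusted p = 0.552). It was -3.93 with limma-voom (adjusted p = 0.285), -3.66 with the replicate number as a block (replicate block) and -3.66 without Pdgfra-Cre:LmnaF/F 3. The exons of Ccne2 share 609 bases (17.4%) with those of Ints8 on the opposite strand, with the same doubt on strand as for Orc2. Ccne1, the other E-type cyclin, did not pass the filter on low counts, with 7, 1, 0 and 16 counts in WT and 5, 1, 19 and 3 counts in Pdgfra-Cre:LmnaF/F. In the edgeR fit without a filter it did not pass the threshold either. E2f1, a transcription factor of S-phase genes, measured 3.36, 17.6, 8.47 and 2.38 CPM in WT and 4.14, 6.67, 2.53 and 3.58 CPM in Pdgfra-Cre:LmnaF/F. WT 2 was the highest by far, and the log2 fold change was -0.87 ± 0.77 (SE, edgeR adjusted p = 0.739) with it and -0.16 without it. The 14 genes with an E2F match in the promoter had a median log2 fold change of -0.064 (-0.83 to 1.54, 6 positive and 8 negative), and the 21 tested genes with a promoter and no match had 0.082 (-1.36 to 1.21, 14 positive and 7 negative).

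**Figure D4:**
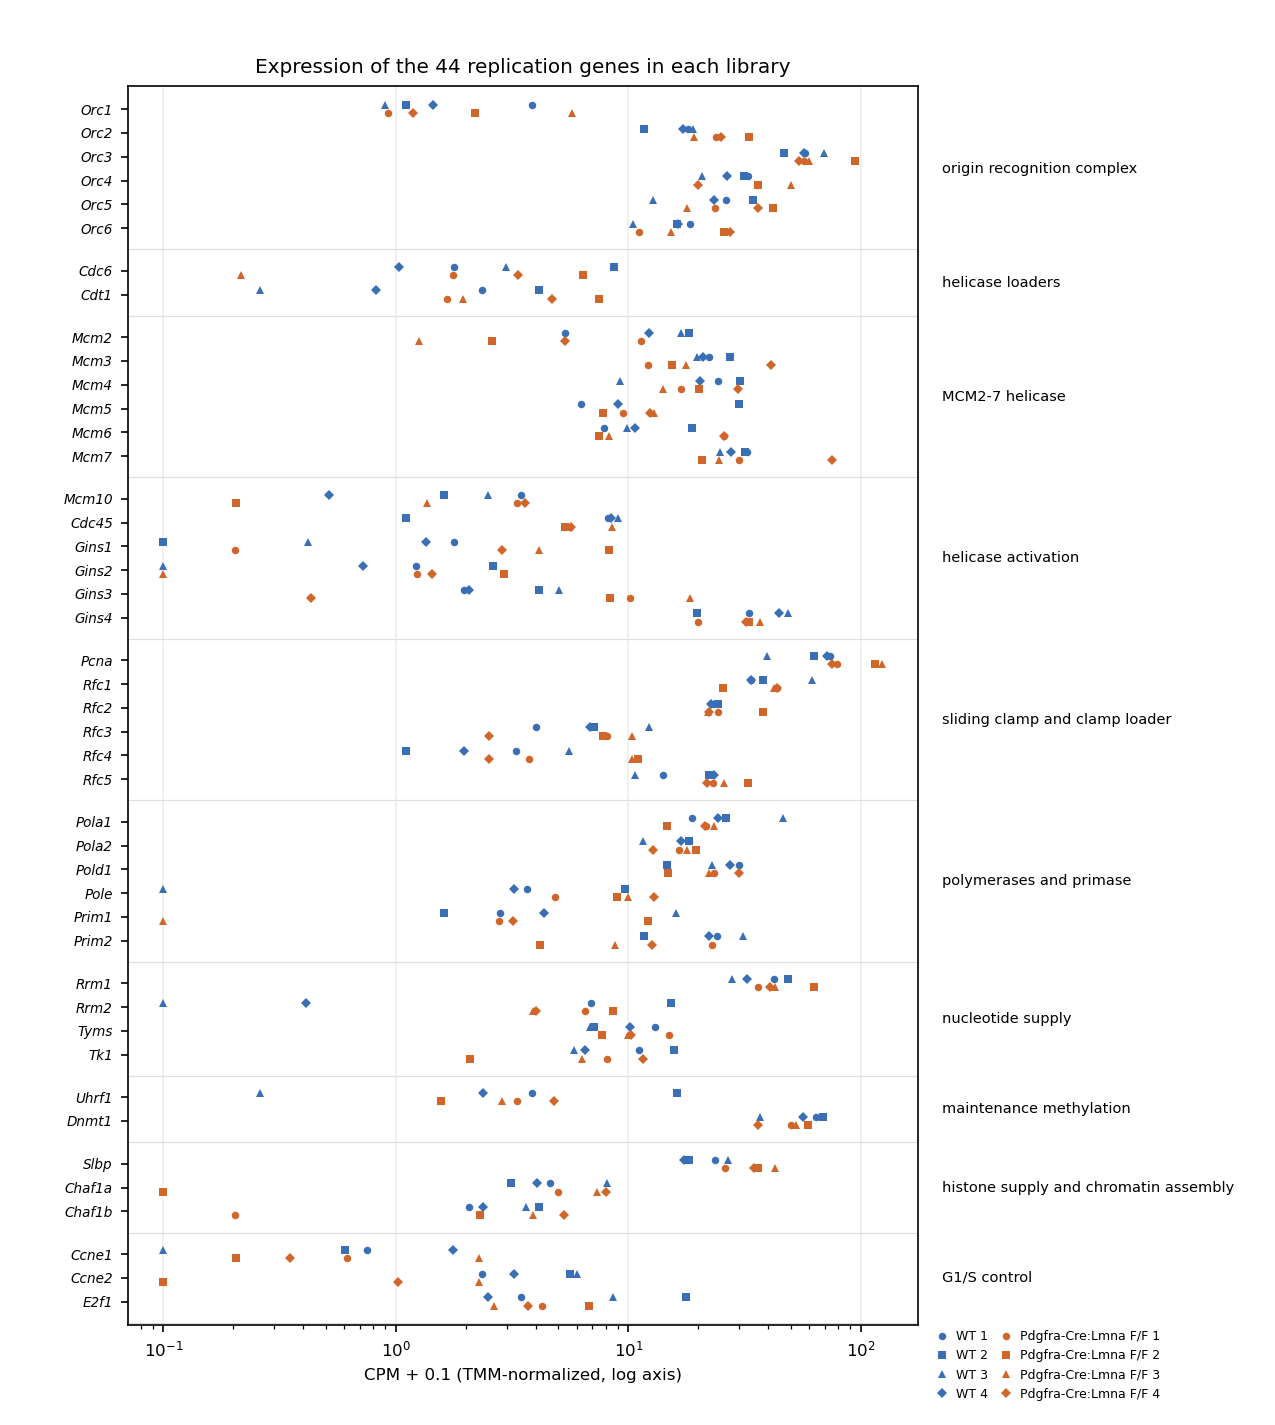
Expression of the 44 replication genes in each library, as CPM + 0.1 on a log axis, by role; blue marks WT, orange marks Pdgfra-Cre:LmnaF/F, and the shape gives the replicate number. Of the tested genes, none of 10 CPM or more reaches the floor, while 15 of the 21 under 10 CPM have a library at 3 counts or fewer. Ccne1, not tested, has such libraries too. Among the tested genes only Pcna, Orc2 and Ccne2 show no overlap of the genotypes.

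The replication genes as a group overlapped in summed level between the genotypes. Their summed level was 695 to 794 CPM in WT and 726 to 867 CPM in Pdgfra-Cre:LmnaF/F, with means of 736 ± 41.9 and 807 ± 58.9 CPM (SD, n = 4 each), and 3 of the 4 Pdgfra-Cre:LmnaF/F libraries were above all of WT. The 22 higher genes summed to 611 to 650 CPM in WT and 630 to 756 CPM in Pdgfra-Cre:LmnaF/F. The 21 lower genes summed to 74.4 to 144 CPM in WT and 95.8 to 111 CPM in Pdgfra-Cre:LmnaF/F, so that both the lowest and the highest library were WT. WT 2 was the highest in this sum. It held the top value of the 8 libraries for 8 of the 44 genes (Cdc6, Mcm2, Mcm4, Rrm2, Tk1, Uhrf1, Dnmt1 and E2f1) and the lowest for 7, while Pdgfra-Cre:LmnaF/F 2 held the top value for 11 and WT 3 for 10. Measured per length in WT, 9 of the 43 tested genes were above the median tested gene (5.71 CPM per kilobase), and the median replication gene stood at 2.50. The order ran from Gins4 and Pcna (27.0 and 25.8) over Orc3 (9.49), Dnmt1 (7.66) and Rfc1 (6.91) down to Gins2 and Mcm10 (0.260 and 0.250). Of the 42 pairs of neighbours in this order, 41 had overlapping ranges over the WT libraries, so that the order of neighbours is not fixed by these data.

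The summed level of markers of cycling cells spread more widely between the libraries than that of the replication genes. Mki67, Top2a, Ccnb1, Cdk1 and Birc5, which are expressed from S phase to mitosis, summed to 12.1, 215, 80.0 and 14.4 CPM in WT 1 to 4 and to 7.20 to 14.3 CPM in Pdgfra-Cre:LmnaF/F. The high values were those of WT 2 and WT 3, and the other 2 WT libraries were in or near the range of the Pdgfra-Cre:LmnaF/F libraries. Mki67 measured 9.44, 80.5, 15.2 and 3.62 CPM in WT and 2.07, 0.104, 3.34 and 1.50 CPM in Pdgfra-Cre:LmnaF/F, without overlap, and its log2 fold change of -3.91 ± 0.94 (SE) did not pass the test (edgeR adjusted p = 0.103, DESeq2 adjusted p = 0.000366). It was -2.42 without WT 2 (edgeR adjusted p = 0.478), -2.50 with limma-voom (adjusted p = 0.565) and -2.91 with the replicate block (edgeR adjusted p = 0.309). Top2a measured 1.96, 98.6, 28.6 and 4.87 CPM in WT and 7.45, 4.90, 0 and 5.25 CPM in Pdgfra-Cre:LmnaF/F (log2 fold change -2.87, edgeR adjusted p = 0.296), and its log2 fold change was -1.41 without WT 2 and -1.22 with limma-voom. Ccnb1 and Cdk1 had log2 fold changes of -1.88 and -3.88, and Birc5 had 0.25 from at most 3.02 CPM. That of Ccnb1 was -0.73 with the replicate block and 0.55 with limma-voom. That of Cdk1 was -2.75 with limma-voom (adjusted p = 0.591) and -5.04 without Pdgfra-Cre:LmnaF/F 4. None of the 5 passed in edgeR with the filter on low counts. In that fit 3 of them (60%) had an unadjusted p under 0.05, against 11.9% of all tested genes. These were Mki67, Top2a and Cdk1, all lower in Pdgfra-Cre:LmnaF/F. Without the filter Mki67 (edgeR adjusted p = 0.000336) and Top2a (edgeR adjusted p = 0.0130) passed. In DESeq2 Cdk1 passed as well as Mki67, with an adjusted p of 0.0369 for Cdk1. With a factor of unwanted variation in DESeq2, Mki67 (adjusted p = 8.54e-05) and Cdk1 (adjusted p = 0.0429) passed, and Top2a did not (adjusted p = 0.341).

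**Figure D5:**
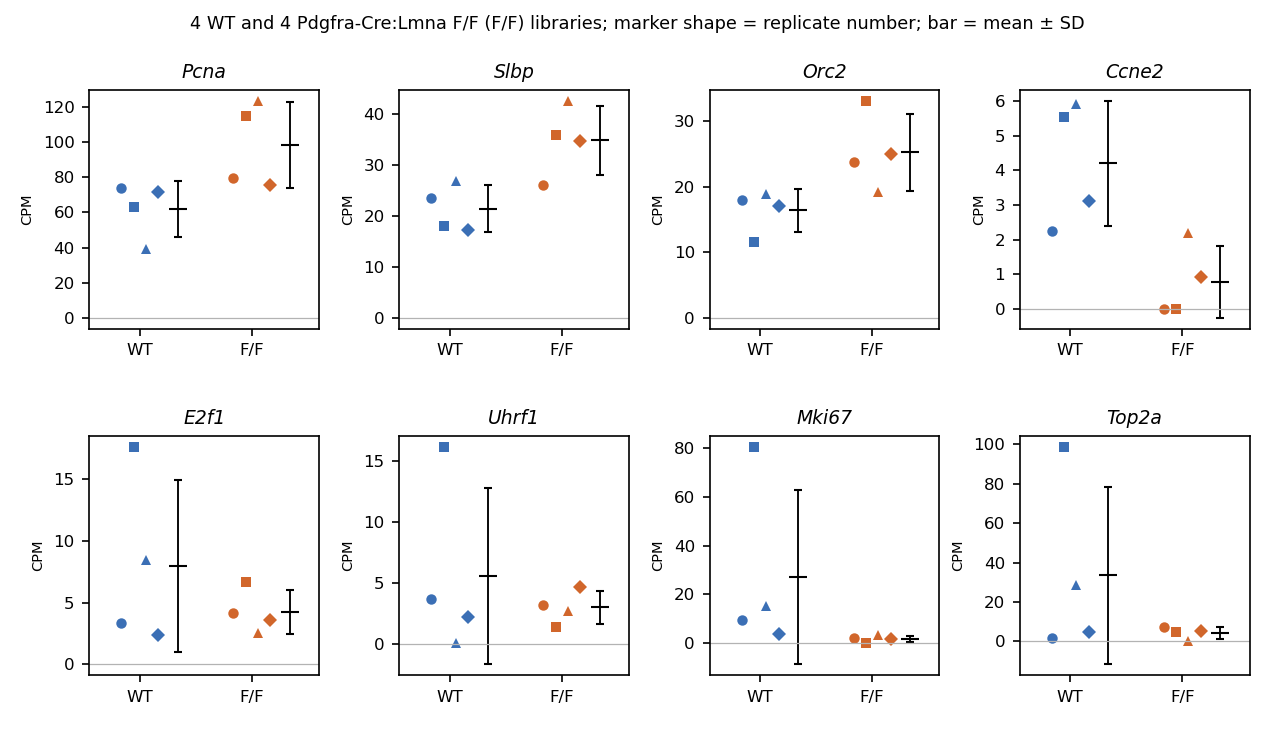
CPM by library (vertical axes, points, shape for the replicate number) with mean ± SD of 4 libraries for 6 replication genes and the cycling-cell markers Mki67 and Top2a; F/F stands for Pdgfra-Cre:LmnaF/F. Pcna, Slbp and Orc2 are higher in most or all F/F libraries, while the WT means of E2f1, Uhrf1, Mki67 and Top2a are carried by WT 2.

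A wider list of 54 other replication genes held further replication proteins, nucleotide enzymes, histone chaperones and E2F family members. Of these, 46 were tested and none passed the threshold in edgeR with the filter on low counts. At an unadjusted p under 0.05 there were 3 (6.52%, against the 11.9% of all genes given above). Tfdp2, a partner of the E2F proteins, measured 48.9, 53.8, 49.1 and 57.2 CPM in WT and 69.1, 74.2, 107 and 144 CPM in Pdgfra-Cre:LmnaF/F (log2 fold change 0.92 ± 0.25, SE, edgeR adjusted p = 0.134). It was the only gene of this list that passed in any alternative: in DESeq2 (adjusted p = 0.0356), in edgeR without the filter (adjusted p = 0.0465) and in DESeq2 with a factor of unwanted variation (adjusted p = 0.0279). Topbp1, which helps to start replication and to signal DNA damage, measured 42.2, 41.8, 30.0 and 42.1 CPM against 44.5, 53.0, 63.4 and 68.2 CPM (log2 fold change 0.55, edgeR adjusted p = 0.367). E2f4, an E2F that mostly represses, measured 34.4, 79.0, 35.8 and 39.9 CPM against 25.9, 18.5, 32.7 and 24.7 CPM (log2 fold change -0.88, edgeR adjusted p = 0.264). The genotypes did not overlap in any of these 3 genes, nor in Recql4, which stood at 2.34 to 2.90 CPM in WT and 0 to 2.07 CPM in Pdgfra-Cre:LmnaF/F; the 4 make 8.70% of the 46, near the 8.03% of all tested genes. Esco2, an enzyme of sister chromatid cohesion that did not pass the filter and is named here after its values were seen, had 13, 13, 24 and 6 counts in WT and 0 in all 4 Pdgfra-Cre:LmnaF/F libraries (edgeR adjusted p = 0.0951 without the filter).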

How the data were processed

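RNA of sorted cardiac fibroblasts was sequenced from 8 mice, 4 of each genotype, with genotype and replicate number taken from the labels. Per the labels and the study's methods, the authors depleted ribosomal RNA, made strand-specific libraries and mapped paired-end reads of 150 bp with HISAT2 (build mm10). Reads in GENCODE genes were then summed by featureCounts. The deposited values are raw counts, 1 row to a symbol. The methods name RUV, which the deposited counts do not include.

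The genotypes were compared with edgeR 4.0.16 under R 4.3.3 (filterByExpr, TMM, quasi-likelihood test, genotype as the only term, Benjamini-Hochberg over 13036 genes), and with limma 3.58.1 and DESeq2 1.42.0 as alternatives, beside a hand-coded RUVr factor, other scalings and filters, a replicate block and leaving out each library. The procedure was tested on simulated data. Levels per length used the summed exons of GENCODE M21, of the same build. Log2 CPM values used a prior count of 2, and up to 3 counts were counted as the floor, which covers counting error only. Intervals are 95% intervals of the fit.

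The 44 genes and all lists were chosen with earlier results of these data known. Values by library are given for genes with an unadjusted p under 0.05 or groups without overlap, for the gene of each role with the highest level per length and the one with the largest log2 fold change, and for genes not tested. Nothing says that the libraries of a genotype were prepared apart beyond their mice. The p-values set the genotype difference against the spread between these libraries within a genotype.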

Additional observations from a re-analysis of the deposited data

Results flagged for a closer look

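Of 50 groups of 4 libraries examined, 3 held a library far from the other 3 by Dixon's test, where chance alone gives about 1 in 20 groups (2.5 of 50). Orc3 stood at 94.3 CPM in Pdgfra-Cre:LmnaF/F 2, with 60.0 CPM as the nearest of its group. Mcm7 stood at 75.2 CPM in Pdgfra-Cre:LmnaF/F 4, with 29.7 CPM as the nearest. Mki67 stood at 80.5 CPM in WT 2, the library with the fewest counts, with 15.2 CPM as the nearest.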

How the results depend on the processing

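No replication gene with an adjusted p had one under 0.05 in any of the 17 alternatives, and Lmna passed in all of them. The number of genes past the threshold, 53, became 303 with DESeq2, 126 with limma-voom, 274 without a filter and 457 with DESeq2 and a RUVr factor, and 13 to 76 on leaving out a library. The other replication genes past the threshold (Tfdp2) numbered 1 with DESeq2, 1 without a filter and 1 with DESeq2 and RUVr, and 0 in every fit without one library. Replication genes without overlap numbered 1 (5.73% of all genes separated) without a filter and 3 to 6 on leaving out a library, where 10.2% to 13.4% of all genes were separated. The median log2 fold change of the replication genes lay between 0.057 and 0.14, and between 0.0042 and 0.19 without one library. The direction turned for Uhrf1 with RUVr (0.11 in edgeR, 0.10 in DESeq2), with the replicate block (0.27) and without WT 2 (0.54, -1.24 to 0.54 over the libraries left out), and for E2f1 with limma-voom (0.10). On leaving out a library the log2 fold change also turned for Orc3 (-0.027 to 0.29), Mcm7 (-0.22 to 0.57) and Pold1 (-0.25 to 0.067, with 0.050 without WT 1), and for the marker Birc5 (-0.25 to 1.05), which was -0.013 with limma-voom and -0.052 and -0.10 with RUVr in edgeR and DESeq2. Ccnb1 was 0.55 with limma-voom. The cause was not tested. The replicate block left 36 genes past the threshold and no replication gene. Same-numbered libraries correlated at -0.027, -0.030, -0.0041 and 0.040 in their deviations. Such correlations cannot show whether same-numbered mice were paired, and the labels state no pairing. The median SE of the log2 fold change was 1.09 for the 21 genes under 10 CPM and 0.33 for the other 22; the parts of depth and of the spread between mice in this were not tested.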
